A study of Mus musculus with 16 samples.

Results

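The let-7 and miR-98 guide strands are the mature RNAs that the let-7 and miR-98 hairpins send into Argonaute. They were chosen by name: every deposited entry named let-7a-5p, let-7b-5p, let-7c-5p, let-7d-5p, let-7e-5p, let-7f-5p, let-7g-5p, let-7i-5p or miR-98-5p, with or without the number of a hairpin copy. This gave 15 of 2510 listed names, merged into 9 mature names of 2097 in all. The rule uses names alone. All 9 had reads in every library, at least 51 reads in each, and all 9 passed the filter on low counts that left 816 names for testing.

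The reads are small RNA libraries of C2C12, an immortal mouse myoblast line that stops dividing and fuses into myotubes when serum is lowered. The genotypes are control, which is wild type, and tKO, in which miR-206 and both copies of miR-1a (miR-1a-1 and miR-1a-2) are knocked out. Each was sequenced in growth medium with 20% FBS (GM) and after 3 days with 2% HS (DM3), which makes 4 groups of 4 libraries. The labels describe the starting cells as PAX7 NEG, which all 4 groups share. Each group holds 2 lines with 2 biological replicates per line. The control lines are populations and the tKO lines are clones, so an effect of the deletions and a feature of these clones cannot be told apart.

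Let-7 is among the most conserved animal miRNA families. Its level is low in stem and embryonic cells, where LIN28 binds the precursors and blocks their maturation, and rises as cells differentiate; known targets include Lin28a, Hmga2, Igf2bp1 and Ras genes. All members carry the same seed, bases 2 to 8, and are therefore expected to share most targets, while their hairpins lie at separate loci and can be transcribed and processed separately.

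The sequences are shown first because several results turn on which bases tell the members apart. They are from RefSeq on GRCm38.p6, 5′ to 3′, with the seed in capitals, and 11 hairpin entries matched the 9 names:
let-7a-5p: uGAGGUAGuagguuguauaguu
let-7b-5p: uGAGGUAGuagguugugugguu
let-7c-5p: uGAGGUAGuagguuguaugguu
let-7d-5p: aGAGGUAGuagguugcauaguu
let-7e-5p: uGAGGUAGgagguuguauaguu
let-7f-5p: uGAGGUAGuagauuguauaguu
let-7g-5p: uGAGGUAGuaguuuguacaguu
let-7i-5p: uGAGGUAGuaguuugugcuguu
miR-98-5p: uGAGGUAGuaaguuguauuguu

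All are 22 nt long and share the seed GAGGUAG. Counted from the 5′ end and with let-7a-5p as the reference, let-7c-5p differs by A19G, let-7e-5p by U9G and let-7f-5p by G12A. 2 differences separate let-7b-5p (A17G and A19G), let-7d-5p (U1A and U16C), let-7g-5p (G12U and U18C) and miR-98-5p (G11A and A19U), and 4 separate let-7i-5p (G12U, A17G, U18C and A19U). Between let-7c-5p and let-7b-5p only A17G remains. Across bases 9 to 12, just behind the seed, let-7a-5p, let-7b-5p, let-7c-5p and let-7d-5p are identical, and the other 5 members each differ from them.

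The loci lie apart. On GRCm38.p6, let-7d-5p (chr13:48536078-48536099), one copy of let-7f-5p (chr13:48537889-48537910) and the let-7a-1 copy of let-7a-5p (chr13:48538239-48538260) lie on the minus strand within an exon of the lincRNA 6720427I07Rik. The reads named let-7a-2-5p were merged into let-7a-5p, and the let-7a-2 hairpin was not used here. One copy of let-7c-5p (chr15:85706616-85706637) and let-7b-5p (chr15:85707325-85707346) lie on the plus strand in an exon of Lncppara. The other copy of let-7c-5p (chr16:77599672-77599693) is in an intron of Mir99ahg, the host of miR-99a. Let-7e-5p (chr17:17830366-17830387) is in an intron of Spaca6, in the cluster that also holds miR-99b and miR-125a. The other let-7f-5p copy (chrX:151912353-151912374) and miR-98-5p (chrX:151913229-151913250) are in an intron of Huwe1. Let-7g-5p (chr9:106178846-106178867) is in an intron of Wdr82, and let-7i-5p (chr10:122985698-122985719) is in an exon of D630033A02Rik on the minus strand. Annotations are from GENCODE M21.

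The libraries held 112792 to 6543570 miRNA reads. The deleted miR-206-3p followed the labels: it stood at 1156 ± 297 CPM (CPM are reads scaled to an equal total of listed miRNA reads; SD, n = 4) in control GM and 34361 ± 16201 CPM in control DM3, against 0.808 to 15.5 CPM in tKO GM and 0.960 to 70.9 CPM in tKO DM3. The summed level of 6 muscle markers ranged from 892 to 1505 CPM in the GM libraries of control and from 20813 to 58032 CPM in its DM3 libraries. MiR-206-3p, at 837 to 1466 CPM and 19950.5 to 57442 CPM there, made up most of that sum, which is therefore no separate check. By group mean in control, miR-133b-3p went from 2.94 to 494 CPM and miR-1a-3p from 0.167 to 27.3 CPM. MiR-133a-3p went from 0.0907 to 6.46 CPM, miR-486a-5p from 38.4 to 82.6 CPM and miR-499-5p from 2.36 to 4.36 CPM. In tKO, where miR-206 and miR-1a are themselves markers on that list, the sum ranged from 40.4 to 71.6 CPM in GM. In DM3 of tKO it ranged from 85.9 to 383 CPM. The 10 markers of other cell types or of serum had a summed CPM of 27.3 to 54.3 for control GM, 8.07 to 24.1 for control DM3, 21 to 98 for tKO GM and 8.14 to 41.9 for tKO DM3, with 1, 3, 1 and 2 of them at 0 in every library of the group. MiR-122-5p, a liver miRNA also found in serum, is 1 of these 10. Its mean went from 20.4 to 2.02 CPM between GM and DM3 of control, and from 37.9 to 4.13 CPM in tKO. MiR-126a-3p, also on that list, went from a mean of 20.5 to 8.90 CPM in control and from 8.18 to 11.9 CPM in tKO. By group mean the DM3 libraries held more reads under 18 nt, 8.32% in control and 7.76% in tKO, than the GM libraries, with 2.35% and 3.41%. The control groups did not overlap, with 1.88% to 2.95% in GM and 4.76% to 12.8% in DM3. In tKO they did, with 2.00% to 6.49% in GM and, apart from the smallest library, 2.96% to 4.80% in DM3. The smallest library, tKO DM3 line 1 replicate 1, stood apart: 18.9% of its reads were under 18 nt, and the listed names miR-6240 and miR-6236 took 35.4% of it. In the other libraries these names took 0.555% to 17.1%.

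Before the levels, the assignment of reads to members was checked, since the members are nearly identical. Whole reads were rebuilt from the deposited sequence and its 3′ tail and matched to the RefSeq hairpins, here called rematching, a step chosen after the data were seen. The check moved 1 member more than the others. Of the reads that match let-7b-5p, 33.8% were listed under let-7c-5p (29.8% to 37.9% by library). 3 kinds of read made up most of them, each listed wholly under let-7c-5p. Capitals mark the part of a read that does not match the hairpin:
let-7b-5p, 21 nt, 10.9% of its reads: ugagguaguagguuguguggu
let-7b-5p, C at the end, 7.74% of its reads: ugagguaguagguugugugguC
let-7b-5p, 23 nt, 4.10% of its reads: ugagguaguagguugugugguuu
let-7b-5p, full length, 57.5% of its reads, listed under its own name: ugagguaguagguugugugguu
let-7c-5p, full length, 73.0% of its reads, listed under its own name: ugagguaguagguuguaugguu

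All 4 let-7b-5p reads have g at base 17, where let-7c-5p has A, as in A17G. Seen from the other side, 12.8% of the reads listed under let-7c-5p match let-7b-5p and 79.0% match let-7c-5p itself. Smaller shares of let-7f-5p (5.54%), let-7g-5p (4.42%), let-7e-5p (4.42%) and miR-98-5p (1.36%) were also listed under let-7c-5p, and 2.08% of let-7i-5p was listed under let-7j. For let-7a-5p, let-7c-5p and let-7d-5p, nearly all of the matching reads were under their own names. Between 3.77% and 7.54% of the reads listed under a member matched no mature miRNA under the rematching rule. Levels are therefore given both as listed and after rematching.

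**Figure D1:**
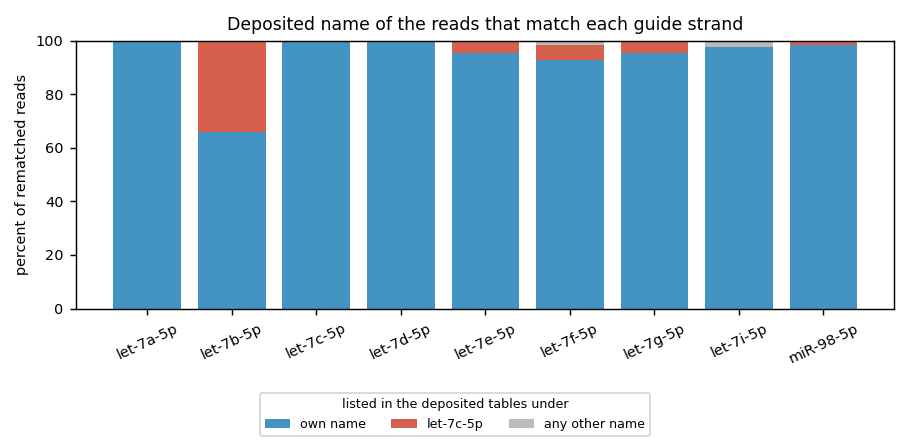
For each guide strand, the bar splits the reads that match its hairpin (percent, all 16 libraries pooled) by the name they carry in the deposited tables: its own name, let-7c-5p, or any other name. Let-7b-5p stands out, with 33.8% of its reads listed under let-7c-5p, and the other members have 5.54% or less there.

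The family made up a large part of the miRNA reads. Its share was 19.1% ± 1.42 in control GM, 13.2% ± 1.68 in control DM3, 17.6% ± 2.11 in tKO GM and 13.5% ± 4.01 in tKO DM3 (SD, n = 4). The lowest library was tKO DM3 line 1 replicate 1 with 7.75% (95% Wilson interval 7.60 to 7.91, which covers counting error only), and the highest was control GM line 2 replicate 1 with 21%. Of the rematched reads, which leave out short and unmatched reads, the family took 24.5% ± 1.83, 19.9% ± 0.303, 23.2% ± 1.40 and 20.1% ± 1.72 in the same order. All GM libraries, at 21.5% or more, were above the control DM3 libraries on that scale, while the highest tKO DM3 library reached 21.8%.

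Within the family the levels spanned about 2 orders of magnitude. Levels are CPM after TMM scaling, a correction for composition, as listed; all members have the same length, but how well each sequence is ligated and amplified was not measured, so the order is one of reads. Let-7c-5p was the highest in all 4 group means, at 85444 in control GM, 50227 in control DM3, 66769.7 in tKO GM and 44027 in tKO DM3. Let-7i-5p followed with 46445.5, 19340.3, 48787 and 29756. Let-7b-5p came next with 25245, 14533.5, 18816 and 10977. MiR-98-5p was the lowest in all 4, at 999, 627, 1319.8 and 881, and let-7e-5p was next to last at 6201, 1822, 6572 and 3066. Let-7a-5p, let-7d-5p, let-7f-5p and let-7g-5p lay between 4858 and 19203. Of the neighbours in this order, let-7c-5p and let-7i-5p did not overlap in either control group but did in both tKO groups, and let-7e-5p and miR-98-5p did not overlap in 3 of the 4 groups. Every other pair of neighbours overlapped. After rematching, let-7b-5p rose to 42526 in control GM, where it no longer overlapped let-7a-5p (21838.5), and in control DM3 it ranked second with 33830.5.

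**Figure D2:**
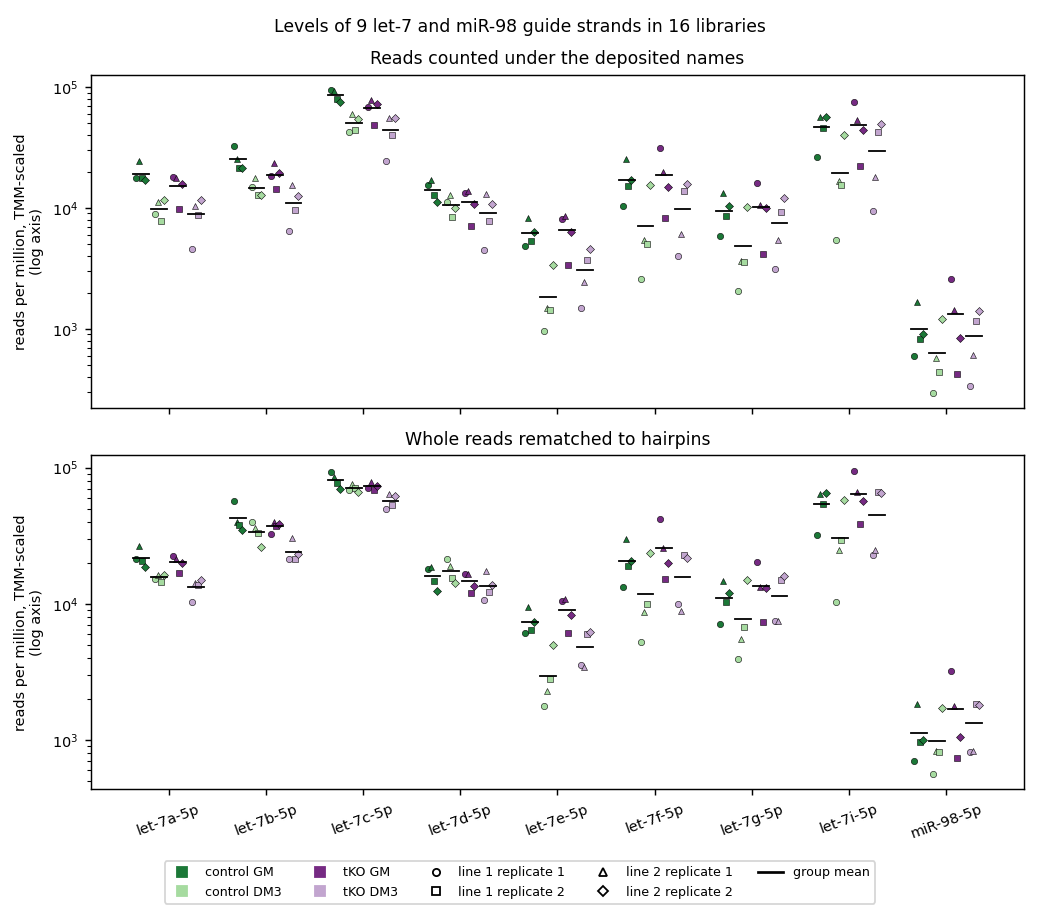
Levels of the 9 guide strands in 16 libraries, in TMM-scaled CPM on a log axis, as listed (top) and after rematching (bottom); each point is a library, its colour the group, its shape the line and replicate, and the black line the group mean. In control DM3 as listed, the highest library is 1.38-fold (let-7b-5p) to 1.53-fold (let-7d-5p) above the lowest for let-7a-5p to let-7d-5p, and from 3.5-fold (let-7e-5p) to 7.29-fold (let-7i-5p) for the other 5 members.

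The first comparison asked how the guide strands change when control cells differentiate. Let-7e-5p fell most. In the order line 1 replicate 1, line 1 replicate 2, line 2 replicate 1 and line 2 replicate 2, which is kept below, its level was 4869.9, 5295, 8326 and 6312 TMM-scaled CPM in control GM and 966, 1444, 1501 and 3376 in control DM3. Every DM3 library was below every GM library, and the library of line 2 replicate 2 was more than 2-fold above the other 3 DM3 libraries. This is a log2 fold change of -1.77 ± 0.42 (SE; adjusted p = 0.00346 by edgeR's quasi-likelihood test). Let-7a-5p fell by 0.96 ± 0.30 on the log2 scale (adjusted p = 0.0211), from 17747, 17806, 24349 and 16910.5 to 8914, 7873, 11170.5 and 11527, again without overlap.

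Let-7b-5p and let-7c-5p also passed the test as listed. Let-7c-5p stood at 94929.6, 79504, 92439.6 and 74904 CPM in GM and 42255, 44387, 60214 and 54052 CPM in DM3, a log2 fold change of -0.77 ± 0.27 (edgeR adjusted p = 0.0408). For let-7b-5p the log2 fold change was -0.80 ± 0.28 (adjusted p = 0.0413), from a range of 21306 to 32655 CPM to one of 12779 to 17636 CPM. Neither pair of groups overlapped. The other 5 members did not pass the test. Let-7i-5p stood at 26609, 45430.3, 56974 and 56769 CPM in GM and 5455, 15429, 16718 and 39759 CPM in DM3, with a log2 fold change of -1.26 ± 0.54 (adjusted p = 0.0896). Here the groups overlapped through the DM3 library of line 2 replicate 2, which was above the lowest GM library. The values of let-7f-5p, let-7g-5p, miR-98-5p and let-7d-5p were -1.26 ± 0.53, -0.97 ± 0.49, -0.67 ± 0.54 and -0.41 ± 0.31, with adjusted p of 0.0846, 0.152, 0.386 and 0.349.

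Thus 4 of 9 members were lower in control DM3 and none was higher. Over all 816 names 27.8% were called, 12% lower and 15.8% higher, and the median log2 fold change was 0.01, against -0.96 for the 9 members. Groups without overlap made up 32.7% of all names. GM and DM3 libraries of a line come from the same cells. With the line as a block, let-7f-5p (-1.39 ± 0.48, edgeR adjusted p = 0.0358) and let-7i-5p (-1.40 ± 0.50, adjusted p = 0.0413) passed as well, 6 of 9 members beside 30% of all names. In bulk RNA, fewer cells of a kind and less of a miRNA per cell cannot be told apart.

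How firmly each member fell depended on the counting. After rematching, let-7e-5p fell by 1.31 ± 0.31 on the log2 scale (edgeR adjusted p = 0.00283) and let-7a-5p by 0.48 ± 0.18 (adjusted p = 0.0425), 2 of 9 members beside 30.3% of 360 names. Let-7b-5p stood at -0.33 ± 0.19 (adjusted p = 0.214), let-7c-5p at -0.21 ± 0.15 (adjusted p = 0.323) and let-7d-5p at 0.12 ± 0.21 (adjusted p = 0.697). Scaling by the library total in place of TMM shifted the median of all names by 0.39 upwards in control and left let-7e-5p as the called member, 1 of 9 beside 27% of all names. Let-7d-5p was at 0.01 under that scaling, and the other 8 members kept a negative sign. In tKO total scaling called 0 of 9 members, beside 18.8% of names. The larger share of short reads in DM3, given above and free of overlap in control only, moves with these changes. So do the lower miR-122-5p in both genotypes and the lower summed level of the markers of other cell types or serum, which include it. In tKO the summed ranges of GM and DM3 overlapped, and miR-126a-3p on the same list rose by group mean. Their part in the result was not tested.

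Let-7e-5p was called in all 16 fits that left out a library and missed the threshold under 1 alternative of 33, with the libraries of replicate 2 alone (-1.23, adjusted p = 0.120). Let-7a-5p lost its call without control GM line 2 replicate 1 (-0.82, edgeR adjusted p = 0.138), control DM3 line 1 replicate 2 (-0.93, adjusted p = 0.112), control DM3 line 1 replicate 1 (-0.97, adjusted p = 0.0811), control DM3 line 2 replicate 1 (-1.09, adjusted p = 0.0560) or control GM line 1 replicate 2 (-1.08, adjusted p = 0.0553). Let-7b-5p and let-7c-5p lost theirs without any 1 of 13 libraries, all but tKO GM line 1 replicate 2 and tKO DM3 replicate 1 of both lines, with adjusted p up to 0.142 and 0.167. Without control DM3 line 2 replicate 2, let-7f-5p (-2.08, adjusted p = 0.00887), let-7g-5p (-1.72, adjusted p = 0.0185) and let-7i-5p (-1.98, adjusted p = 0.0150) passed.

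**Figure D3:**
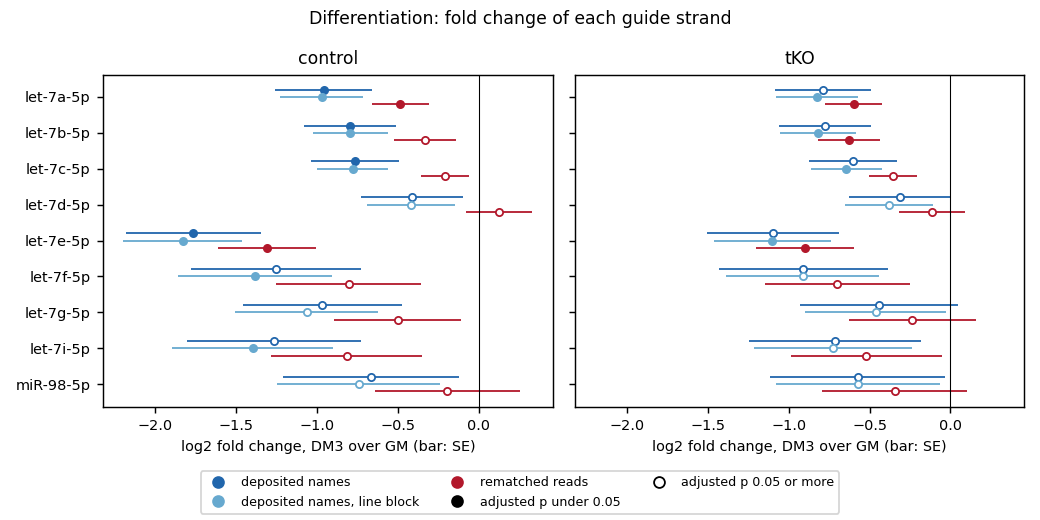
Log2 fold change of each guide strand in DM3 over GM, in control (left) and tKO (right), as listed, as listed with the line as a block, and after rematching; bars are standard errors and filled points have an adjusted p under 0.05. In control, let-7e-5p lies farthest from 0 in all 3 fits (-1.77 as listed), and let-7d-5p changes sign after rematching (0.12).

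The same comparison in tKO cells gave values nearer to 0 as listed. No member passed the test, beside 19.9% of all names, and the members' log2 fold changes ran from -1.10 to -0.31 with a median of -0.71. Let-7b-5p came closest (-0.78 ± 0.28, edgeR adjusted p = 0.0609), before let-7e-5p (-1.10 ± 0.41, adjusted p = 0.0668) and let-7a-5p (-0.79 ± 0.30, adjusted p = 0.0705), and 4 of 9 members had an unadjusted p under 0.05, beside 264 of 816 names. With the line as a block 4 members fell: let-7a-5p (-0.83 ± 0.25, adjusted p = 0.0277), let-7b-5p (-0.82 ± 0.23, adjusted p = 0.0182), let-7c-5p (-0.64 ± 0.22, adjusted p = 0.0421) and let-7e-5p (-1.10 ± 0.36, adjusted p = 0.0364), beside 21.9% of all names. After rematching 3 fell, let-7a-5p (-0.60 ± 0.18, adjusted p = 0.0153), let-7b-5p (-0.63 ± 0.19, adjusted p = 0.0195) and let-7e-5p (-0.90 ± 0.30, adjusted p = 0.0323), beside 27.8% of names.

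Rematched levels of let-7a-5p in tKO were 22368, 16981, 21388 and 19854 CPM in GM and 10311, 13759, 14155 and 14974 CPM in DM3, with no overlap between the groups. Those of let-7b-5p were 32669, 37530.3, 40135 and 38498 CPM in GM and 21500.0, 21227, 30184 and 23403 CPM in DM3, also without overlap. Rematched let-7c-5p did not overlap either (-0.35 ± 0.15, edgeR adjusted p = 0.0788), and 25.8% of 360 names had no overlap. Let-7e-5p stood at 10574, 6068, 10836 and 8311 CPM in GM and 3531, 6017, 3420.1 and 6187 CPM in DM3, where the highest DM3 library reached the lowest GM library. The calls as listed depended on single libraries: without tKO GM line 1 replicate 2, let-7a-5p (-1.0), let-7b-5p (-0.94) and let-7e-5p (-1.36) passed, with edgeR adjusted p of 0.0409, 0.0428 and 0.0355. Without tKO DM3 line 2 replicate 1 let-7b-5p passed (-0.99, adjusted p = 0.0360), and without tKO DM3 line 2 replicate 2 let-7e-5p did (-1.46, adjusted p = 0.0417). Leaving out the small library tKO DM3 line 1 replicate 1 gave -0.56 for let-7a-5p, -0.57 for let-7b-5p and -0.87 for let-7e-5p, none of them called.

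In both genotypes, 4 members passed in the libraries of replicate 1 alone and none in those of replicate 2 alone. For every line and medium the replicate 2 library was the deeper, as in tKO DM3 line 1, with 112792 reads in replicate 1 and 3125381 in replicate 2. Replicate 1 also holds the smallest library, so replicate number and depth cannot be told apart. In control, let-7e-5p (-2.50, edgeR adjusted p = 0.00980), let-7f-5p (-2.25, adjusted p = 0.0284), let-7g-5p (-1.82, adjusted p = 0.0476) and let-7i-5p (-2.01, adjusted p = 0.0496) were lower in DM3 with replicate 1 alone, beside 14.3% of 566 names. With replicate 2 alone they stood at -1.23, -0.62, -0.43 and -0.85, none called beside 15% of 1141 names. In the tKO libraries of replicate 1 alone, let-7e-5p (-1.97, edgeR adjusted p = 0.0139), let-7f-5p (-2.25, adjusted p = 0.0216), let-7i-5p (-2.14, adjusted p = 0.0299) and miR-98-5p (-1.98, adjusted p = 0.0430) were lower in DM3 on the log2 scale, beside 21.7% of names. In those of replicate 2 alone the same 4 stood at -0.18, 0.39, 0.50 and 1.05, with adjusted p of 0.872, 0.734, 0.629 and 0.263, and let-7g-5p and let-7d-5p were at 0.63 and 0.10, none called beside 6.75% of names. Let-7i-5p shows this in single libraries. Its level fell from 75131 to 9416 CPM between GM and DM3 of line 1 replicate 1 and from 53735 to 18130.5 CPM in line 2 replicate 1, but went from 22081 to 42171 CPM in line 1 replicate 2 and from 44201 to 49306 CPM in line 2 replicate 2. Each of these pairs is a single library against another, with no error of its own. The labels pair GM and DM3 by line alone, so matching by replicate number within a line is a choice. Matched the other way, line 1 would go from 75131 to 42171 CPM and from 22081 to 9416 CPM. Line 2 would go from 53735 to 49306 CPM and from 44201 to 18130.5 CPM.

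Genotype made no difference that passed the test. In GM, tKO against control gave members' log2 fold changes from -0.42 to 0.40 (edgeR adjusted p of 0.861 or more), none called beside 1.23% of all names. In DM3 they ran from -0.40 to 0.75 (adjusted p of 0.470 or more), again none beside 0.98% of names. After rematching no member was called in either medium, beside 3.89% of names in GM and 3.06% in DM3. Without tKO DM3 line 1 replicate 1, 63 names and again no member were called in DM3, and let-7a-5p (0.14), let-7c-5p (0.0936) and let-7d-5p (0.0762) changed sign. The highest value in DM3 was that of let-7e-5p, 0.75 ± 0.41 as listed and 0.69 ± 0.30 after rematching (unadjusted p = 0.0334, adjusted p = 0.239). Rematched let-7b-5p stood at -0.49 ± 0.19 in DM3 (unadjusted p = 0.0188, edgeR adjusted p = 0.189). Rematched let-7c-5p was lower in every tKO DM3 library than in every control DM3 library (-0.30 ± 0.15, adjusted p = 0.288), where 9.72% of 360 names had no overlap. No member had an unadjusted p under 0.05 in either medium as listed with TMM scaling. With total count scaling let-7e-5p did in DM3 (0.78 ± 0.31, unadjusted p = 0.0224, edgeR adjusted p = 0.349). Whether the response to differentiation differed by genotype was tested as an interaction, and 0 of 816 names passed in edgeR, with 40 names and no member at an unadjusted p under 0.05. The members' interaction values ran from 0.02 to 0.67 with standard errors of 0.38 to 0.77, the highest being that of let-7e-5p, 0.67 ± 0.57 (adjusted p = 0.951). After rematching, let-7a-5p (-0.11), let-7b-5p (-0.30), let-7c-5p (-0.15), let-7d-5p (-0.24) and miR-98-5p (-0.15) were below 0, and let-7e-5p was again the highest, at 0.41 ± 0.43.

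The members did not all vary together from library to library. After the values had been seen, the 9 were split into let-7a-5p to let-7d-5p on the one side, which share bases 9 to 12, and let-7e-5p, let-7f-5p, let-7g-5p, let-7i-5p and miR-98-5p on the other. The following is a description of that split, without a test. Within groups, the SD of the log2 level was 0.35 to 0.44 in the first set and 0.63 to 0.93 in the second as listed, and 0.14 to 0.27 against 0.46 to 0.75 after rematching. Deviations from the group means, over the same 16 libraries, correlated with a Pearson r of 0.92 to 0.99 among the 10 pairs of the second set and of 0.75 to 0.93 among the 6 pairs of the first. Across the sets the median r was 0.54. After rematching these became 0.88 to 0.98, 0.10 to 0.78 and a median of -0.13. Across the sets r then ran from -0.72 to 0.68. Let-7a-5p did not follow the split, with an r of 0.47 to 0.68 with the second set. Within its own set its r was 0.0985 with let-7b-5p, 0.62 with let-7c-5p and 0.67 with let-7d-5p. All pairs share the same libraries, their depth and their scaling.

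The ratio of the first set's summed reads to the second's shows it library by library. As listed it was 3.33, 1.75, 1.51 and 1.36 in control GM, in the order of lines and replicates given above, and 6.79, 2.84, 3.65 and 1.26 in control DM3. In tKO GM it was 0.887, 2.09, 1.41 and 1.54, and in tKO DM3 2.17, 0.947, 2.89 and 1.09. Ratios thus differed widely between libraries of the same genotype and medium, most in control DM3, and the groups overlapped. Rematching changed each ratio little, to 3.20 at the first of these libraries and to 6.62 at the highest. Hairpin copies of the second set lie on 5 chromosomes, and let-7f-5p shares one of its clusters with let-7a-5p and let-7d-5p of the first set.

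**Figure D4:**
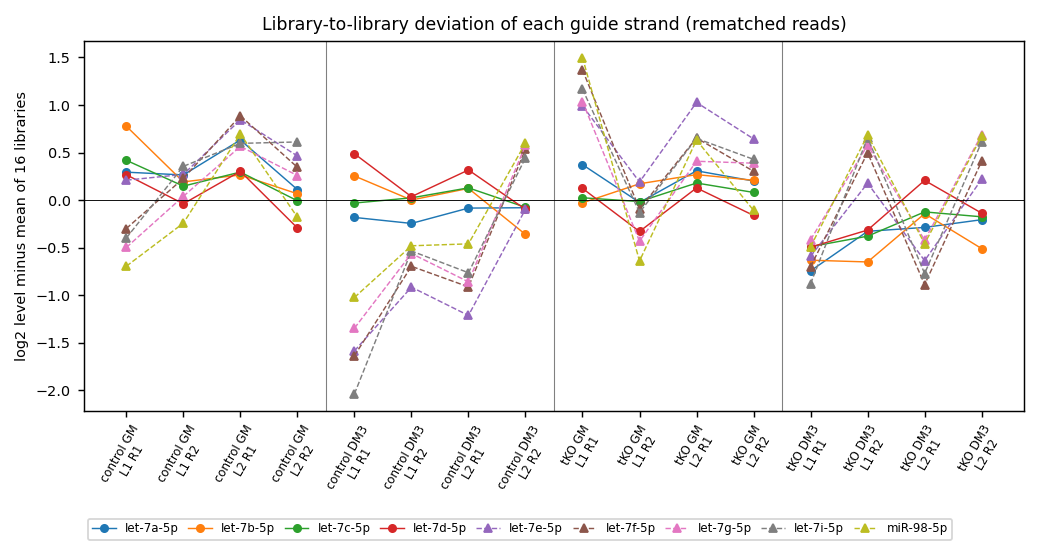
Rematched log2 level of each guide strand in each library, minus its mean over the 16 libraries; circles with full lines are let-7a-5p to let-7d-5p, triangles with broken lines the other 5 members, and L and R give line and replicate. The 5 broken lines rise and fall together, all lowest in control DM3 line 1 replicate 1 and all but that of let-7e-5p highest in tKO GM line 1 replicate 1, and the full lines stay within 1 log2 unit of 0.

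Most of the strands that lie beside let-7 in the genome were also lower in DM3. Hairpins of miR-99a, miR-100, miR-125b, miR-99b and miR-125a share clusters with let-7 hairpins, and their 5 guide strands were followed as a fixed list. In control, 4 of 5 were lower in DM3, beside the 12% of all names given above, with a median log2 fold change of -1.0: miR-125b-5p (-1.51 ± 0.27, edgeR adjusted p = 0.000346), miR-100-5p (-1.44 ± 0.32, adjusted p = 0.00235), miR-125a-5p (-1.0 ± 0.31, adjusted p = 0.0193) and miR-99b-5p (-0.86 ± 0.31, adjusted p = 0.0412). MiR-99a-5p stood at -0.62 ± 0.51 (adjusted p = 0.394). In tKO 3 of 5 were lower, miR-125b-5p (-1.29), miR-100-5p (-1.18) and miR-99b-5p (-0.89), beside 8.58% of all names. There miR-125a-5p stood at -0.74 ± 0.30 (edgeR adjusted p = 0.0966) and miR-99a-5p at -0.03 ± 0.51 (adjusted p = 0.986). None passed the test by genotype in either medium. MiR-99a-5p averaged 10870.2 ± 2057 CPM in the GM libraries of control and 4114 ± 2486 CPM in those of tKO. These CPM did not overlap, with 8614 to 13233 in control and 1690 to 7391 in tKO. On the TMM scale 8.82% of all names had no overlap there. The log2 fold change of miR-99a-5p was -1.49 ± 0.52 and missed the threshold (edgeR adjusted p = 0.253).

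Of 242 other names with a mean of at least 100 CPM, those whose level followed the family sum most closely over the 16 libraries were miR-25-3p (r = 0.96), let-7c-2-3p (r = 0.95), miR-100-5p (r = 0.94), miR-15b-3p (r = 0.93) and miR-106b-3p (r = 0.92). MiR-25-3p averaged 3838 TMM-scaled CPM in control GM, 1179.7 in control DM3, 3089 in tKO GM and 1326 in tKO DM3. The passenger strands, which are mostly degraded when the guide enters Argonaute, were looked at after the values of the guides were known, and 10 of 12 passed the filter. In control, 4 of 10 fell in DM3, beside 12% of all names: let-7b-3p (-1.56 ± 0.33, edgeR adjusted p = 0.00159), let-7f-1-3p (-1.33 ± 0.41, adjusted p = 0.0207), let-7e-3p (-1.30 ± 0.37, adjusted p = 0.0124) and let-7a-2-3p (adjusted p = 0.000963). Let-7a-2-3p went from 5.27 to 11.7 CPM in GM to 0 to 2.16 CPM in DM3, so its fold rests on libraries at 0 and is not given. In tKO, 2 of 10 fell, beside 8.58% of all names, let-7b-3p (-1.85 ± 0.34, adjusted p = 0.000973) and let-7e-3p (-1.15 ± 0.37, adjusted p = 0.0340). Let-7d-3p was the most abundant passenger strand, with 2737 CPM in control GM, 4244 in control DM3, 2371 in tKO GM and 2068 in tKO DM3; its change in control was 0.17 ± 0.32 (edgeR adjusted p = 0.728). The let-7c-2-3p hairpin is the one that neighbours let-7b-5p.

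The deposited tables also record bases at the 3′ end that do not match the miRNA, here called tails. Enzymes add such bases to miRNAs and their precursors, and TUT4 and TUT7 are known to add uridine to let-7 precursors. As listed, tails became rarer in control cells on differentiation. Let-7g-5p, for example, had tails on 24%, 22.4%, 21.8% and 20.1% of its reads in control GM and 16.0%, 16.4%, 17.2% and 19.1% in DM3, with no overlap. The log2 odds of a tail fell by 0.45 ± 0.09 (limma adjusted p = 0.00111). In all, 8 of 9 members fell, by 0.32 to 0.58, and let-7e-5p missed the threshold (-0.22 ± 0.12, adjusted p = 0.117). This is no feature of let-7 alone: 66.4% of 119 names with at least 50 reads in every library were called, and the median over them was -0.33. The count of 8 members held in each of the 16 fits that left out a library.

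After rematching, all 8 members with enough reads fell, by 0.33 to 0.47 (limma adjusted p of 0.000791 to 0.00641), beside 76.7% of 73 names. Let-7e-5p was among them, at -0.41 ± 0.11 (adjusted p = 0.00373), from 24.3%, 22.8%, 20.4% and 21.5% of reads in GM to 17.1%, 14.8%, 21% and 18.4% in DM3. These groups overlapped through line 2 replicate 1 of DM3. For miR-98-5p, which had as few as 49 rematched reads in a library, the share with a tail went from 19.4% to 14.1% in control. An exact permutation test over the 70 assignments of 8 libraries gave p = 0.0286 (two-sided), the smallest it can give, and 0.114 after adjustment over the 4 comparisons of this kind.

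In tKO, 1 of 9 members passed as listed, beside 17.6% of names. It was let-7b-5p, at -0.39 ± 0.12 (limma adjusted p = 0.0320). Its call was lost without tKO DM3 line 1 replicate 1, tKO DM3 line 1 replicate 2, tKO GM line 1 replicate 2 or tKO GM line 2 replicate 2. After rematching it stood at -0.10 ± 0.09 (adjusted p = 0.485), and 0 of 8 members passed beside 15.1% of names. By genotype, the share of reads with any tail as listed passed the test for no member, in GM (0 of 119 names in limma, 10 of them and no member at an unadjusted p under 0.05) or in DM3 (0 of 119, with 15 names and 3 members at an unadjusted p under 0.05). The 3 were let-7f-5p (0.22 ± 0.09), let-7g-5p (0.27 ± 0.09) and miR-98-5p (0.43 ± 0.15), with adjusted p of 0.317, 0.159 and 0.217. After rematching none of 8 members passed in either medium, beside 0% of names in GM and 2.74% in DM3, but let-7g-5p did in DM3 with the replicate block added (0.34, adjusted p = 0.0495). Whether the response of the tails differed between genotypes was not tested.

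The base at the end was most often a cytosine. Over the 16 libraries, 9.83% (let-7b-5p) to 11% (let-7a-5p) of a member's reads ended in an unmatched C, against a median of 4.82% for 65 other miRNAs and of 9.08% for the 23 of them that, like all members, end in U. Of those 23, 8 were above the lowest member. The C mostly stood in place of base 22, in 77.1% (let-7b-5p) to 94.2% (let-7i-5p) of such reads, as in these 2 reads of let-7i-5p, with the unmatched base in capitals:
let-7i-5p, full length, 75.8% of its reads: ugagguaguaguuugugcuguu
let-7i-5p, C at the end, 9.80% of its reads: ugagguaguaguuugugcuguC

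Whether that C was present in the RNA or arose in library preparation or sequencing was not tested. Unmatched A ended 3.21% (miR-98-5p) to 7.18% (let-7b-5p) of reads. These fell in control DM3 for 5 of 8 members, let-7a-5p (-0.50), let-7g-5p (-0.47), let-7f-5p (-0.45), let-7c-5p (-0.41) and let-7d-5p (-0.32), beside 31.5% of names, and for none of 8 in tKO, beside 5.48%. In tKO DM3, unmatched C on let-7g-5p was more frequent than in control DM3, 11.3% ± 0.458 against 9.16% ± 0.991 of reads (log2 odds 0.34 ± 0.10, limma adjusted p = 0.0487), 1 of 8 members beside 8.22% of names.

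Where an added U can be told from the hairpin depends on the next hairpin base. In the hairpins of let-7a-1, let-7b-5p, let-7c-5p, let-7d-5p and let-7g-5p the base after position 22 is itself U, so a single U added after it cannot be told from the hairpin. In those of let-7e-5p, let-7i-5p and miR-98-5p it is G, and let-7f-5p has 1 copy of each kind. Unmatched U ended 3.13% ± 1.16 of let-7e-5p reads, 1.39% ± 0.375 of let-7i-5p reads and 0.488% ± 0.403 of miR-98-5p reads (SD over 16 libraries). Among the members whose next base is U it ended 0.603% ± 0.162 of let-7g-5p reads and 0.431% ± 0.193 of let-7b-5p reads, and on average under 0.05% of those of let-7a-5p, let-7c-5p and let-7d-5p. For let-7f-5p the mean was 0.0359%. For none of the 8 members with enough reads did unmatched U pass the test in any comparison, beside 9.59% of names in control DM3 against GM, 11% in tKO and 0% for genotype in either medium. Unmatched G was highest in the GM libraries of control line 1, where it ended 2.98% to 4.53% of a member's reads in replicate 1 and 2.53% to 3.75% in replicate 2, against 0.407% to 0.923% in line 2. In the DM3 libraries of control line 1 it ended 0% to 1.24% and 0.353% to 0.818% of reads. It ended 1.18% to 1.99% in tKO GM line 1 replicate 1, 0.874% to 1.38% in tKO GM line 2 replicate 2, and up to 4.08% in the smallest library, tKO DM3 line 1 replicate 1, that value being of miR-98-5p with 49 reads. Other miRNAs showed it too, with medians of 3.57% and 2.59% in the GM libraries of control line 1. Leaving out each of those 2 libraries left 8 of 9 members called as listed, but each such fit kept the other library with raised G. Rematched let-7a-5p, for example, had unmatched G on a mean of 1.87% of reads in control GM and 0.58% in control DM3. Its means for any tail were 18.1% and 14.6%. The part of G in the fall of the tails was not tested.

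**Figure D5:**
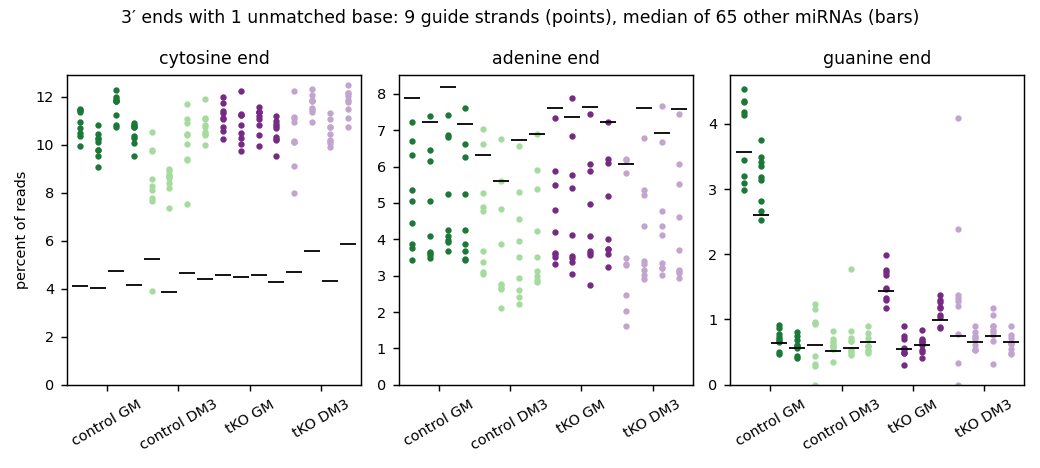
Percent of a member's rematched reads that end in 1 unmatched C, A or G, in each library (columns of points, 9 guide strands each, in the order of replicates within a group; separate axes from 0), with a black bar for the median of 65 other miRNAs. C ends lie near 10% in nearly all libraries, A ends mostly below the bar of the other miRNAs, and G ends are highest in 2 control GM libraries, at 2.53% to 4.53%, apart from miR-98-5p in the smallest library (4.08%).

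Most reads had the mature length. Rematching keeps only reads that start near the mature 5′ end, so it cannot show how many start elsewhere. Reads of 22 nt made up 69.3% (let-7b-5p) to 91.6% (miR-98-5p), and let-7b-5p had the largest shares of 23 nt (9.24%) and, after let-7d-5p (13.8%), of 21 nt (13.1%). With differentiation in control, the mean length after rematching fell slightly in 6 of 8 members, most in let-7e-5p, from 21.9 to 21.8 nt (-0.107 ± 0.022, limma adjusted p = 0.00103). Let-7b-5p fell by 0.0818 nt, let-7a-5p by 0.0444 nt, let-7d-5p by 0.0441 nt, let-7g-5p by 0.0410 nt and let-7c-5p fell by 0.0406 nt, beside 52.1% of names. In tKO 3 of 8 fell, let-7d-5p (-0.0417 nt), let-7a-5p (-0.0341 nt) and let-7c-5p (-0.0305 nt), beside 47.9% of names, and without tKO GM line 1 replicate 2 the count was 1. As listed, where the tail is not part of the sequence, only miR-98-5p was called in control, 0.114 ± 0.0379 nt longer in DM3 (adjusted p = 0.0415), beside 26.1% of names, and none in tKO, beside 25.2%. That call held without tKO GM line 2 replicate 1, tKO GM line 1 replicate 2, control DM3 line 2 replicate 1, control DM3 line 2 replicate 2 or control GM line 2 replicate 2. A second member joined it without tKO DM3 line 1 replicate 1, and without any other library the count was 0. By genotype, the mean length passed the test for no member as listed, beside 1.68% of names in GM and 0.84% in DM3. After rematching none passed either, beside 4.11% and 0%.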

How the data were processed

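Small RNA from 16 libraries of C2C12 cells was read after adapter ligation and gel size selection. Adapters were trimmed with cutadapt 1.15, and STAR 2.5.4 and the mouse build mm10 were used, per the submitters' processing notes. The deposited values are estimated counts per listed sequence from the authors' miRNA tables, in which a read that fits several names is shared between them. The software release behind these tables and its miRNA reference are not given in the sources used here. Hairpin copies of a mature name were merged, and the counts were rounded to whole numbers. Levels were tested with edgeR 4.0.16 (robust quasi-likelihood test, TMM scaling, filterByExpr, 816 names) in R 4.3.3. Tails and mean lengths were tested with limma 3.58.1 on names with at least 50 reads in every library, the tails as log2 odds with 0.5 reads added to each count. Adjusted p-values from edgeR and limma are Benjamini-Hochberg adjusted over all names tested, and called means an adjusted p under 0.05. DESeq2 1.42.0 was an alternative.

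For rematching, each whole read was given to the RefSeq hairpin that it matched from within 2 bases of the mature start over at least 16 nt, with a tail of at most 3 nt; ties were left out. This step was chosen after seeing the data. The 9 members and all lists were chosen with earlier results of these data known. Every member is named; from outside, the strands of neighbouring hairpins and the 5 names most alike are named, and the passenger strands were added later. GM and DM3 libraries of a line pair by their labels, since they come from the same cells, so the line was used as a block in an alternative. The tests were checked on simulated data with independent libraries and changes larger than most of those reported here. That check does not cover changes of the reported size or libraries that share a line. Library size ran from 112792 to 6543570 reads, and Wilson intervals cover counting error only, since PCR reads carry no molecular identifiers. With 2 lines per genotype, p-values measure the spread between these libraries.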

Additional observations from a re-analysis of the deposited data

Results flagged for a closer look

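In 76 groups of 4 libraries examined, 3 held a library far from the other 3 by Dixon's ratio, where chance gives about 5 in 100. For let-7a-5p, control GM line 2 replicate 1 stood at 24349 TMM-scaled CPM, above the 16910.5 to 17806 of the other control GM libraries; the call of let-7a-5p in control was lost without this library (log2 fold change -0.82, edgeR adjusted p = 0.138). The percent of let-7a-5p reads with a tail as listed was 12.8% in tKO DM3 line 1 replicate 1, the smallest library, below the 15.9% to 16.4% of the others of its group. The percent of let-7g-5p reads with a tail was 18.5% in tKO DM3 line 2 replicate 1, below the 20.3% to 20.6% of the other tKO DM3 libraries.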

How the results depend on the processing

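Over the alternatives other than leaving out a library, 17 of the members' values changed sign, 24 lost and 41 gained a call, and 558 did neither; the causes were not tested. For DM3 against GM in control, 4 members were called. The count was 1 with total count scaling and with no filter, 7 with line and replicate blocks, 0 with replicate 2 alone, and 2 without mismatched sequences, with sequences of 18 to 25 nt, with sequences listed under a single name, after rematching and after rematching with the replicate block. The share of all names is not given here with no filter, with both blocks or with sequences listed under a single name. Those member counts therefore do not show a change particular to the members. The 227 of 816 names called became 34 of 86 with at least 100 reads in every library and 81 of 566 with replicate 1 alone. They became 149 of 488 without mismatches, 150 of 497 at 18 to 25 nt, 109 of 360 after rematching and 118 of 360 after rematching with the replicate block. Let-7d-5p turned to 0.0127 with total scaling, 0.0029 without mismatches, 0.12 after rematching and 0.13 after rematching with the replicate block.

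In tKO, 0 members were called, against 2 at 100 reads, 3 with DESeq2, 4 with the line block, with both blocks or with replicate 1 alone, 3 without mismatches, 1 at 18 to 25 nt, and 3 after rematching with or without the replicate block. The share of all names with DESeq2, with both blocks, without mismatches or at 18 to 25 nt is not given here. Those member counts therefore do not show a change particular to the members. The 162 of 816 names became 37 of 86 at 100 reads, 93 of 703 with the 2 groups alone, 77 of 1141 with replicate 2 alone and 100 of 360 after rematching. With replicate 2 alone, let-7d-5p stood at 0.10, let-7f-5p at 0.39, let-7g-5p at 0.63, let-7i-5p at 0.50 and miR-98-5p at 1.05.

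Between genotypes in GM, 10 names were called, against 1 at 100 reads, 20 with DESeq2, 2 and 6 with replicate 1 or 2 alone, 19 at 18 to 25 nt and 18 after rematching with the replicate block. With replicate 2 alone, let-7e-5p stood at -0.27, let-7f-5p at -0.50, let-7g-5p at -0.42, let-7i-5p at -0.63 and miR-98-5p at -0.45. In DM3, 8 names became 15 with no filter or without mismatches, 3 at 100 reads, 23 with DESeq2, 14 with the replicate block, 5 with the 2 groups alone, 1 with replicate 1 alone, 17 at 18 to 25 nt and 19 after rematching with the replicate block. Let-7a-5p turned to 0.0098 with no filter and 0.0844 with replicate 2 alone, and let-7d-5p to 0.0384 with the latter.

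For tails in control, 79 names became 46 at 200 reads. In tKO, 1 member became 0 and 21 names 11 after rematching, and 0 and 13 with the replicate block added. Between genotypes in GM, 0 names became 1 without mismatches or at 18 to 25 nt. In DM3, 0 names became 2 at 200 reads, after rematching or with the replicate block, 1 without mismatches or at 18 to 25 nt, and 4, with 1 member (let-7g-5p, 0.34 on the log2 odds scale, limma adjusted p = 0.0495), after rematching with the replicate block. For length in control, 1 member became 0 at 200 reads, at 20 reads or without mismatches, and 2 at 18 to 25 nt. After rematching 6 members were called beside 38 of 73 names, and 6 beside 44 of 73 with the replicate block added. As listed, 31 names became 19 at 200 reads and 17 without mismatches. In tKO, 0 members became 1 without mismatches or at 18 to 25 nt. After rematching 3 were called beside 35 of 73 names, and 4 beside 41 of 73 with the replicate block added. As listed, 30 names became 19 at 200 reads. The share of all names at 18 to 25 nt, and in tKO without mismatches, is not given here. Those member counts therefore do not show a change particular to the members. Between genotypes, length was called for 2 names in GM, 1 at 200 reads and 10 after rematching with the replicate block, and for 1 name in DM3, 2 at 20 reads, without mismatches or at 18 to 25 nt, 3 with the replicate block, 0 after rematching and 5 with both.

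Leaving out 1 library at a time gave, for members and then names, 1 to 5 and 159 to 267 in control, 0 to 3 and 113 to 160 in tKO, 0 to 0 and 6 to 16 for genotype in GM, 0 to 0 and 6 to 63 in DM3 (63 without tKO DM3 line 1 replicate 1), and 0 to 0 and 0 to 1 for the interaction. For tails the ranges were 8 to 8 and 45 to 103 in control, 0 to 1 and 11 to 25 in tKO, 0 to 0 and 0 to 1 in GM, and 0 to 0 and 0 to 2 in DM3. After rematching they were 8 to 9 and 36 to 74, 0 to 0 and 5 to 16, 0 to 0 and 0 to 1, and 0 to 1 and 0 to 4. For length they were 0 to 2 and 22 to 50, 0 to 0 and 16 to 38, 0 to 0 and 0 to 3, and 0 to 1 and 0 to 9, and after rematching 4 to 6 and 32 to 50, 1 to 4 and 29 to 45, 0 to 0 and 0 to 6, and 0 to 0 and 0 to 4. Genotype values that changed sign ranged, in GM, from -0.0514 to 0.38 for let-7e-5p, -0.27 to 0.52 for let-7f-5p, -0.22 to 0.43 for let-7g-5p, -0.23 to 0.39 for let-7i-5p and -0.16 to 0.91 for miR-98-5p, and in DM3 from -0.30 to 0.14 for let-7a-5p, -0.32 to 0.0936 for let-7c-5p and -0.45 to 0.0762 for let-7d-5p.

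The labels give libraries with the same replicate number nothing else in common. Over 555 names, deviations of same-numbered libraries had a mean r of 0.0940 and a lowest of -0.461. For libraries with different numbers the mean was -0.0882, so these values do not show that the number carries nothing. For the line, which pairs by the labels, the means were 0.137 within a line and -0.127 between the lines of a genotype. With the replicate block as listed, members called were 4 in control and 0 in tKO and for genotype in GM, in DM3 and in the interaction, and names were 243, 168, 12, 14 and 0. For tails the block gave 8, 1, 0 and 0 members, beside 80, 26, 0 and 2 of 119 names. For length it gave 1, 0, 0 and 0 members, beside 34, 36, 2 and 3 of 119 names.

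The smallest library holds 112792 reads and 49 rematched reads of miR-98-5p, which limits its tail shares most. Reads of 1 kind that fit 2 members could not be assigned by rematching.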
